A study of Mus musculus with 9 samples.

Results

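A set of 10 genes of the unfolded protein response, Hspa5, Hsp90b1, Calr, Pdia4, Dnajb9, Sdf2l1, Xbp1, Ddit3, Herpud1 and Trib3, were followed in mouse alveolar rhabdomyosarcoma and in skeletal muscle. Every probe set whose single gene symbol in the platform annotation was one of the 10 was taken, which gave 20 of the 22626 probe sets tested. Of the 10 genes 7 had several probe sets and 3 had 1. Total RNA of 6 alveolar rhabdomyosarcomas and of 3 wild-type skeletal muscles had been hybridised to 1 Affymetrix array each. Tumours of this kind arise in soft tissue and carry features of developing skeletal muscle. The labels used here give no genotype, allele, age, treatment or strain for either group beyond wild type for the muscles. They do not name the muscles sampled or say whether samples came from separate animals, so the p-values reflect only how much these samples vary, and that variation may be technical.

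The endoplasmic reticulum (ER) folds secreted and membrane proteins. When unfolded proteins build up there, the sensors Ire1, Perk and Atf6 start a response that slows translation and raises chaperones, folding enzymes and factors that send misfolded proteins to degradation. Ire1 splices the messenger RNA of Xbp1, Perk acts through the transcription factor Atf4, and Atf6 is cut to release a transcription factor. In skeletal muscle fibres much of the ER is specialised as sarcoplasmic reticulum, which stores and releases calcium.

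The promoters of 4 members are shown first, because exact copies of the ER stress response element, the sequence through which Atf6 and Xbp1 are known to act, were found in 3 of them and a related element in the other. The sequences are from RefSeq (GRCm38.p6), which listed a window for all 10 members, and run from 250 bases before the gene's start to 50 bases after it. Capitals mark the matches to these 2 forms of the element and to no other motif. The windows are chr2:34771840-34772139 (plus strand) for Hspa5, chr10:86705395-86705694 (minus strand) for Hsp90b1, chr8:84846882-84847181 (minus strand) for Calr and chr8:94386179-94386478 (plus strand) for Herpud1.
Hspa5 promoter: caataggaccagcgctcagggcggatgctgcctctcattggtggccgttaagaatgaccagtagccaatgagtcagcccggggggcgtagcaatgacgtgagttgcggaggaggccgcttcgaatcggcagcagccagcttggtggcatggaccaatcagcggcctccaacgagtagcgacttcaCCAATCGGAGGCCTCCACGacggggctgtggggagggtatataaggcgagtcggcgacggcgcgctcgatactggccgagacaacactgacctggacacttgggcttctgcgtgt
Hsp90b1 promoter: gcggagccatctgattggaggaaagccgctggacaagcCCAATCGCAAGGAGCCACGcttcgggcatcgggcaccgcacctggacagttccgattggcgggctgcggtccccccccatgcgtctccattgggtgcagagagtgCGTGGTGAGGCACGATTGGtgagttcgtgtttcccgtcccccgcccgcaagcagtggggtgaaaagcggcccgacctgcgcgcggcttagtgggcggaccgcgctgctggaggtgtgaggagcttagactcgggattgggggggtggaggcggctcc
Calr promoter: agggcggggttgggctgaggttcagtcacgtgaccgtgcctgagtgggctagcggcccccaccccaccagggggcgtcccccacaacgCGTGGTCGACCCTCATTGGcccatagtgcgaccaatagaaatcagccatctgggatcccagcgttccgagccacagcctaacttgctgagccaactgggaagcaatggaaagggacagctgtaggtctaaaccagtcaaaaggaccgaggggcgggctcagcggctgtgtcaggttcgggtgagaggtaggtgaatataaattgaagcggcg
Herpud1 promoter: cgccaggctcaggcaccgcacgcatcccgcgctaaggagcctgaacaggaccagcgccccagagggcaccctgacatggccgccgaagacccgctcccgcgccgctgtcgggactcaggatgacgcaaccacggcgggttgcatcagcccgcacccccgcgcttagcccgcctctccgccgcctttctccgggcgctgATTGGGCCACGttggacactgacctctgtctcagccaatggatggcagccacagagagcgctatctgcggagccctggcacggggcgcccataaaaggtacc

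The ER stress response element, searched as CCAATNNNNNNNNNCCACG on both strands, stood 65 to 47 bases before the start of Hspa5. In Hsp90b1 it stood at 212 to 194 bases and, on the opposite strand, at 107 to 89 bases before the start. In Calr it stood on the opposite strand, 162 to 144 bases before the start. A match was present in 0.119% of all 32851 mouse windows of the same length. The second form of the element, ATTGGNCCACG, was matched 52 to 42 bases before the start of Herpud1 and in 0.0365% of all windows. The element TGACGTGG, bound by Xbp1, matched no member (0.676% of all windows). The Atf4-type element TGATGNAA matched Herpud1 and Trib3, against 3.97% of all windows. No match overlapped another. Dnajb9, Xbp1, Ddit3, Pdia4 and Sdf2l1 had none of the 4 in this window, which says nothing about elements elsewhere or in other spellings.

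Of the 10 genes 5 were higher in the tumours and 1 was lower. Signals are MAS5 intensities in arbitrary units, 1 per probe set and array, after every array had been scaled to the same trimmed mean. A probe set was called higher or lower where its difference in log2(signal + 16), tumour minus muscle, had an adjusted p under 0.05 (limma, Benjamini-Hochberg over all probe sets). Of the 20 probe sets 10 were called higher, 2 lower and 8 were not called. Among all probe sets 15.4% were called, 7.88% higher and 7.53% lower. The median log2 difference was 1.27 over the 20 and 0.11 over all probe sets. With each gene read through its probe set of highest mean log2 signal over all 9 arrays, Hspa5, Hsp90b1, Calr, Xbp1 and Ddit3 were higher, Dnajb9 was lower, and Pdia4, Sdf2l1, Trib3 and Herpud1 were not called. In that reading 17.2% of all 12393 genes were called, 8.4% higher and 8.77% lower, and the median was 1.31 for the 10 genes and 0.10 for all. Tumour and muscle signals did not overlap for 9 probe sets on which every tumour lay above every muscle and for 1 on which every tumour lay below. Among all probe sets 19.8% did not overlap, 10.1% with every tumour above and 9.7% with every tumour below. By brightest probe set 4 of the 10 genes had every tumour above every muscle, against 10.7% of all genes, and 21.6% of all genes did not overlap in either direction. The 10 rises did not rest on every array equally, and without muscle 1, muscle 2 or muscle 3 they numbered 5, 5 and 4. In those fits 10.5%, 8.76% and 7.51% of all probe sets were called, against 15.4% with all arrays.

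**Figure D1:**
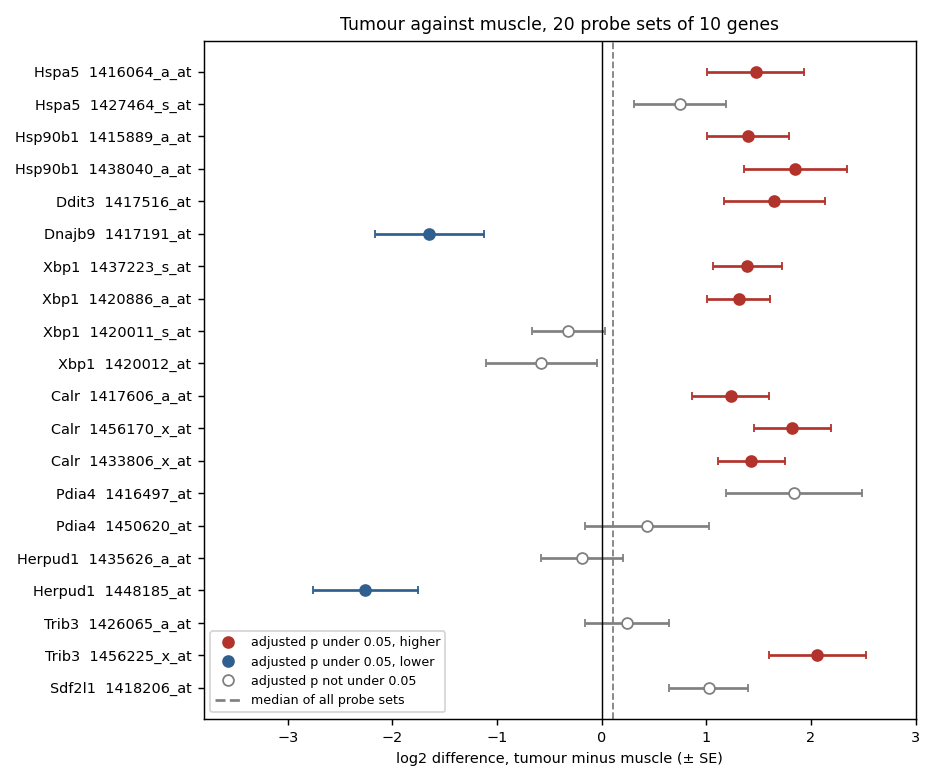
Log2 difference, tumour minus muscle, with its SE for each of the 20 probe sets (6 tumours, 3 muscles); filled points had an adjusted p under 0.05, and the dashed line is the median of all probe sets, 0.11. Of the filled points 10 lie to the right of 0 and 2, Dnajb9 and a Herpud1 probe set, to the left.

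The arrays differed in ways that touch these values. Muscle 1 and muscle 3 were deposited at trimmed means of 294.3 and 140.9, against 500.2 on each of the other 7 arrays, and were multiplied by 1.70 and 3.55. Tumour 1 was the least like the other tumours, with a mean correlation of log2 signals across genes of 0.737 with them, against 0.817 to 0.867 for tumours 2 to 6. Muscles 1 to 3 had mean correlations of 0.735, 0.737 and 0.716 with the 6 tumours, values near that of tumour 1. The muscle averages include tumour 1 and its own does not, so they do not cover the same tumours. Genes are not independent replicates, so this describes the arrays. The Gapdh control gives a 3'/5' signal ratio that is high in degraded RNA, and it was 1.93 to 9.39 on the tumours and 1.68, 57.2 and 33.0 on muscles 1 to 3. Its part in the results was not tested.

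Hspa5 encodes BiP, the main Hsp70 chaperone of the ER, which also keeps the 3 sensors inactive. Its brighter probe set, 1416064_a_at, had signals of 2848, 12313, 5767, 11000, 9358 and 7445 in tumours 1 to 6, against 4049, 2437 and 1872 in muscles 1 to 3. Tumours 2 to 6 lay above every muscle, and tumour 1 lay below muscle 1. The log2 difference was 1.47 ± 0.46 (SE), or 2.76-fold (adjusted p = 0.0466, limma). Without tumour 1 the difference was 1.74 and the adjusted p 0.0035. The call was lost when any 1 of the arrays other than tumour 1 was left out, with adjusted p between 0.0527 and 0.24 and differences between 1.22 and 1.77. It was also lost with median centring (0.136) and without the intensity trend (0.0596). The dimmer probe set, 1427464_s_at, ranged from 629 to 2579 in tumours and from 595 to 910 in muscles. It differed by 0.75 ± 0.44 and was not called (adjusted p = 0.305). On both probe sets tumour 2 was the brightest tumour and tumour 1 the dimmest.

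Hsp90b1 encodes Grp94, the Hsp90 of the ER, and both of its probe sets rose. On 1415889_a_at the signals were 1844, 3607, 4289, 3444, 5429 and 4090 in tumours 1 to 6, against 1340, 2142 and 859 in muscles 1 to 3. Only tumour 1 fell within the range of the muscles. The difference was 1.40 ± 0.39, or 2.64-fold (adjusted p = 0.0261, limma), and it was 1.60 without tumour 1 (adjusted p = 0.00371). The call was lost without tumour 5 (0.0555), muscle 1 (0.0853) or muscle 3 (0.193), and with median centring (0.0921). On 1438040_a_at the signals were 1641, 442, 1020, 1297, 501 and 552 in tumours, against 417, 184 and 119 in muscles, so that every tumour lay above every muscle. The difference was 1.85 ± 0.49, or 3.61-fold (adjusted p = 0.0201, limma). This call was lost without muscle 2 (0.0912) or muscle 3 (0.144). The probe sets of Hsp90b1 ordered the tumours differently: tumour 1 was the lowest on the brighter and the highest on the dimmer.

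Calr encodes calreticulin, a lectin chaperone that holds newly made glycoproteins and also binds calcium in the ER. All 3 of its probe sets rose, and on each of them every tumour lay above every muscle. The brightest, 1417606_a_at, had signals of 15116, 7903, 7843, 6896, 7772 and 7475 in tumours 1 to 6, against 2950, 5142 and 3096 in muscles 1 to 3. Tumour 1 stood alone at the top, and tumours 2 to 6 lay close together. The difference was 1.23 ± 0.37, or 2.35-fold (adjusted p = 0.0369, limma). Leaving out tumour 3, 5 or 6 or a single muscle ended the call (adjusted p between 0.0505 and 0.181), as did median centring (0.0721). On 1456170_x_at the signals were 4301 to 11380 in tumours and 1526 to 2438 in muscles, and the difference was 1.82 ± 0.37 (adjusted p = 0.00416, limma). That call held when any single array was left out. The ending x, which 1433806_x_at shares, marks probe sets in which some probes can also match other transcripts. On 1433806_x_at the range was 3865 to 6569 in tumours and 1463 to 2163 in muscles, with a difference of 1.43 ± 0.32 (adjusted p = 0.00682, limma), which was lost without muscle 3 (0.0691).

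Pdia4 and Sdf2l1 were brighter in tumours on average but did not pass. Pdia4 encodes ERp72, a disulfide isomerase of the ER. Its brighter probe set, 1416497_at, had signals of 1218, 218, 243, 978, 108 and 384 in tumours 1 to 6, against 126, 105 and 60.5 in muscles 1 to 3. Tumours 1 and 4 were far above the rest, and tumour 5 lay among the muscles. The difference was 1.84 ± 0.65 (adjusted p = 0.0717, limma), and it was called without tumour 5 (2.18, adjusted p = 0.0283). The dimmer Pdia4 probe set, 1450620_at, lay between 45.4 and 150 in tumours and between 29.3 and 229 in muscles (0.43 ± 0.59). Sdf2l1, a partner of ER-resident J proteins, had signals of 482, 254, 338, 341, 339 and 396 in tumours, against 103, 206 and 209 in muscles. Every tumour lay above every muscle, but the difference of 1.02 ± 0.38 was not called (adjusted p = 0.0894, limma). It was called without the scaling of muscles 1 and 3 (0.0251), with dim probe sets left out (0.043) and with a weight per group (0.0478), where 19.9%, 27.6% and 21.7% of the probe sets fitted were called. The brighter Pdia4 probe set was called in the fits without the scaling (0.00606) and with a weight per group (0.022).

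Dnajb9 was lower in tumours. It encodes ERdj4, a J protein that works with BiP, helps clear misfolded proteins and restrains Ire1. Its single probe set, 1417191_at, had signals of 369, 2174, 1175, 828, 1041 and 2307 in tumours 1 to 6, against 2217, 5761 and 3473 in muscles 1 to 3. All tumours but tumour 6 lay below every muscle, and tumour 6 lay just above muscle 1. The difference was -1.65 ± 0.52, so that tumours were 3.15-fold lower (adjusted p = 0.0442, limma). Leaving out tumour 3, 4 or 5 raised the adjusted p to 0.0665, 0.0797 and 0.0755, and leaving out muscle 1, 2 or 3 raised it to 0.0506, 0.226 and 0.141. The call was also lost with quantile normalization (0.0582), with median centring (0.0944), without the intensity trend (0.0632) and without the scaling of muscles 1 and 3, where the difference was -0.80 (adjusted p = 0.334). The difference stayed below 0 in all 23 alternatives.

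**Figure D2:**
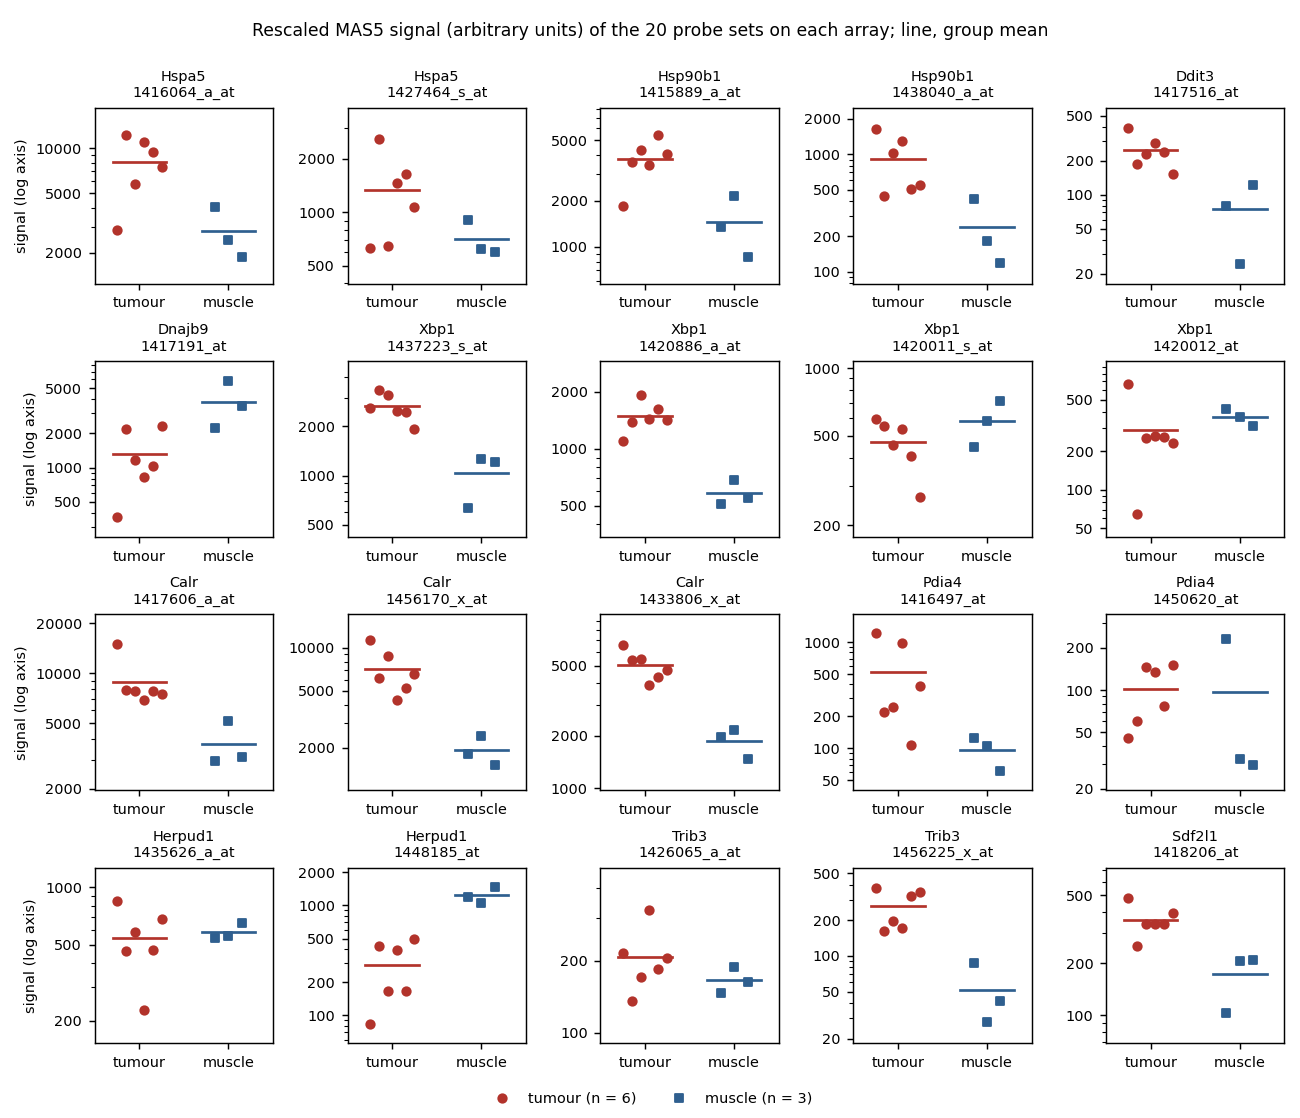
Signal of each of the 20 probe sets on the 6 tumour arrays (circles, tumours 1 to 6 from left to right) and the 3 muscle arrays (squares, muscles 1 to 3), on log axes that differ between panels; lines are group means. The Calr, Sdf2l1 and Ddit3 probe sets and the brighter Xbp1 probe sets have every tumour above every muscle, and Herpud1 1448185_at has every tumour below.

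Of the transcription factor genes, Xbp1 and Ddit3 rose. Xbp1 encodes the factor that Ire1 activates by splicing, and its 4 probe sets did not move together. On 1437223_s_at, the brightest, the signals were 2587, 3333, 3114, 2493, 2456 and 1939 in tumours 1 to 6, against 634, 1257 and 1215 in muscles 1 to 3. On 1420886_a_at they were 1107, 1390, 1938, 1436, 1632 and 1426 in tumours, against 515, 689 and 550 in muscles. On both probe sets all tumours lay above all muscles. The differences were 1.39 ± 0.33 (adjusted p = 0.0106, limma) and 1.31 ± 0.30 (adjusted p = 0.00838, limma), rises of 2.61-fold and 2.49-fold. The call of 1437223_s_at was lost without muscle 1 (0.083) and that of 1420886_a_at without muscle 3 (0.0585). The remaining probe sets overlapped between groups and were not called. On 1420011_s_at signals lay between 266 and 591 in tumours and between 446 and 716 in muscles (-0.32 ± 0.35), and on 1420012_at between 64.5 and 665 in tumours and between 314 and 421 in muscles (-0.58 ± 0.53). Which stretch of the transcript each probe set reads was not examined, so spliced and unspliced Xbp1 cannot be told apart here.

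Ddit3 encodes CHOP, a factor induced downstream of Perk and linked to cell death under lasting stress. Its single probe set, 1417516_at, had signals of 388, 187, 228, 288, 240 and 153 in tumours 1 to 6, against 79.3, 24.5 and 121 in muscles 1 to 3. Every tumour lay above every muscle. The difference was 1.65 ± 0.48, or 3.13-fold (adjusted p = 0.031, limma). It was lost without tumour 3 (0.0535), tumour 4 (0.0554), tumour 5 (0.0595), muscle 1 (0.0699) or muscle 2 (0.21). The median over all probe sets was 144.4 to 275.8 on the tumour arrays and 183.3 to 205.2 on the muscle arrays. Ddit3 lay above its own array's median in tumours 1 to 5, and below it in tumour 6 and all 3 muscles. No detection calls were used here, so whether the muscle signals are above background is not known.

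Herpud1 and Trib3 gave different answers on different probe sets. Herpud1 encodes an ER membrane protein that helps pass misfolded proteins to degradation. On 1448185_at its signals were 83.7, 427, 166, 397, 167 and 497 in tumours 1 to 6, against 1202, 1051 and 1472 in muscles 1 to 3, so that every tumour lay below every muscle. The difference was -2.26 ± 0.50, so that tumours were 4.78-fold lower (adjusted p = 0.00702, limma). The call was lost without muscle 3 (0.053) and without the scaling of muscles 1 and 3 (-1.41, adjusted p = 0.0799). On 1435626_a_at, whose mean log2 signal was the higher, the signals were 844, 461, 580, 229, 469 and 681 in tumours, against 545, 553 and 648 in muscles. The groups overlapped and the difference was -0.19 ± 0.39 (adjusted p = 0.828, limma).

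Trib3 encodes a pseudokinase that is induced by Atf4 and CHOP and restrains them in turn. On 1456225_x_at its signals were 372, 162, 196, 174, 322 and 347 in tumours 1 to 6, against 86.5, 27.5 and 41.4 in muscles 1 to 3. Every tumour lay above every muscle, and the difference was 2.06 ± 0.46, or 4.17-fold (adjusted p = 0.00751, limma). It was lost without muscle 2 (0.0592). On 1426065_a_at the signals were 215, 136, 171, 325, 185 and 206 in tumours, against 147, 189 and 163 in muscles, with a difference of 0.24 ± 0.40 (adjusted p = 0.774, limma). Affymetrix gives the ending x to probe sets in which some probes can also match other transcripts. Both calls for Herpud1 and Trib3 therefore stood on 1 of their 2 probe sets each.

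The 6 tumours did not vary in the same way on all members. Between tumours the signal of a probe set varied least for Calr 1433806_x_at, where the highest was 1.70 times the lowest, and for Xbp1, at 1.72 and 1.75 times on its rising probe sets. It varied most for Pdia4 1416497_at, at 11.2 times, followed by Xbp1 1420012_at at 10.3 times and Dnajb9 at 6.25 times. Tumour 1 held the highest signal of the 6 tumours on 11 of the 20 probe sets and the lowest on 7. Its array was the least like the other tumours and had the highest median over all probe sets, 275.8. How often it is the extreme tumour among all probe sets was not counted. Tumour 1 was the highest on all 3 Calr probe sets, on Pdia4 1416497_at, Ddit3 and Sdf2l1, and the lowest on both Hspa5 probe sets, Dnajb9 and Herpud1 1448185_at. Relative to the muscle mean, tumour 1 differed by 0.11 for Hspa5 1416064_a_at and by -3.21 for Dnajb9 on the log2 scale, while tumour 2 differed by 2.21 and -0.70. On 12 of the 20 probe sets all 6 tumours lay above the muscle mean, and on Dnajb9 and Herpud1 1448185_at all 6 lay below it. How many of all probe sets do so was not counted, so this describes the members without a background. These differences between single tumours have no replicate and were not tested.

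**Figure D3:**
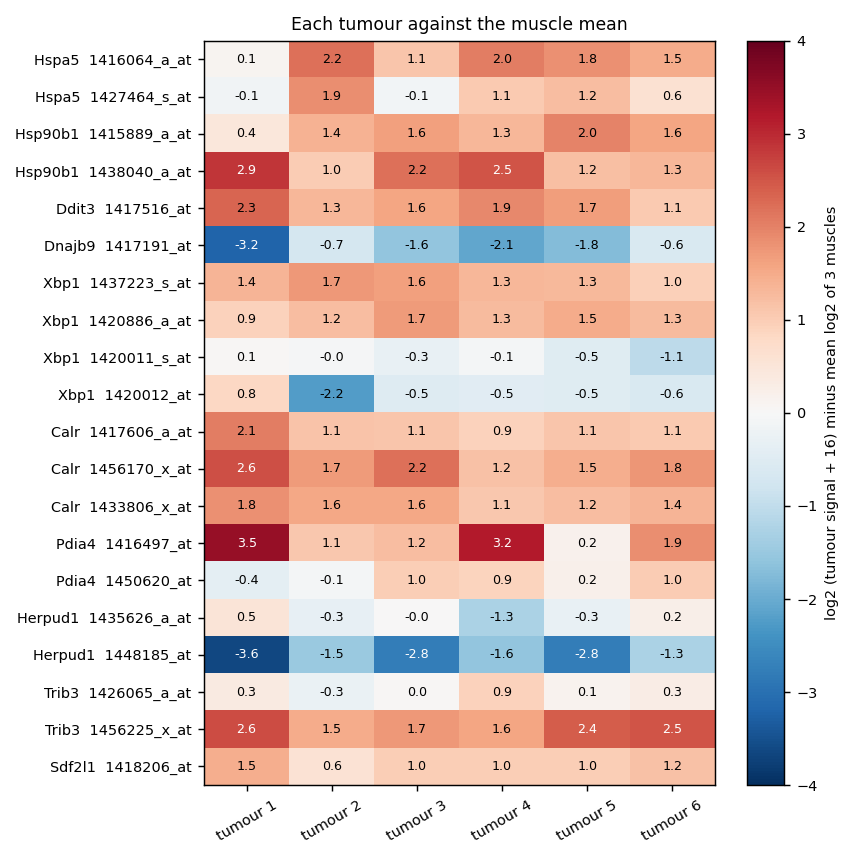
Log2(signal + 16) of each tumour minus the mean of the 3 muscles, for the 20 probe sets; red is above and blue below the muscle mean. Tumour 1 is near 0 for Hspa5 (0.11 and -0.14) and holds the lowest values of Dnajb9 and Herpud1 1448185_at (-3.21 and -3.64).

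Other genes of the pathway were compared in lists, each gene through its brightest probe set, beside the background of 8.4% higher and 8.77% lower among all genes. Of 21 other ER chaperones and folding enzymes 6 were higher and none lower, with a median log2 difference of 0.93 and 17 of 21 estimates above 0. The 6 were Ppib (cyclophilin B, a prolyl isomerase), Prdx4 (a peroxidase of the ER), Pdia3 (a disulfide isomerase that works with calreticulin), Manf, Hyou1 (an exchange factor for BiP) and Txndc5. The Ppib signal averaged 5816 ± 1641 over the 6 tumours and 1303 ± 738 over the 3 muscles (SD), which differed by 2.23 ± 0.39 (adjusted p = 0.00133, limma). Prdx4 differed by 1.69 ± 0.40 (adjusted p = 0.00993, limma) and Pdia3 by 1.61 ± 0.42 (0.0181). Only 1 of 3 probe sets was called higher for Prdx4 and for Hyou1, and 1 of 2 for Txndc5. Among the genes not called by their brightest probe set, Ero1a and Canx had 2 of 3 called higher and Dnajc10 1 of 3. The count of 6 was 12 without tumour 1, 2 without muscle 2 and 1 without muscle 3, when Ppib alone was called. The share of all probe sets called moved the same way, to 19.3%, 8.76% and 7.51% in these 3 fits. With dim probe sets left out 6 of the 21 were higher and none lower, where 27.6% of the probe sets fitted were called. The element of Hspa5, Hsp90b1 and Calr was also matched in the windows of 7 other listed genes, Canx, Creld2, Dnajc3, Ero1b, Pdia6, Derl3 and Syvn1. By brightest probe set limma called 0 of these 7 at an adjusted p under 0.05, and 2 had an unadjusted p under 0.05. Their estimates ran from -0.51 for Syvn1 to 1.65 for Creld2, with 4 above 0. Among all 12393 genes 1909 were higher and 1711 lower at that unadjusted threshold (limma), and 6885 estimates were above 0. The 2 other probe sets of Canx were called higher.

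Protein entry into the ER and ER-associated degradation held genes called in both directions. Of 18 genes of protein entry 3 were higher and 1 lower, 22.2% against 17.2% of all genes, with a median of 0.67. For Sec61a1, the channel subunit of the translocon, the signal averaged 5016 ± 1447 over the 6 tumours and 484 ± 165 over the 3 muscles (SD), which differed by 3.35 ± 0.35 (adjusted p = 3.16e-05, limma) on the brightest of its 6 probe sets, 3 of which were called higher and none lower. Ssr2 and Ssr1, of the translocon-associated complex, differed by 2.22 ± 0.45 and 1.80 ± 0.31, and Srpr, the receptor of the signal recognition particle, by -1.61 ± 0.31. Of 17 degradation genes 3 were lower and 1 higher, 23.5% against 17.2% of all genes, with a median of -0.02. The lower ones were Ube2g2 (a ubiquitin-conjugating enzyme, -1.97 ± 0.58), Edem3 (which trims mannose from misfolded glycoproteins, -1.72 ± 0.31) and Herpud2 (a relative of Herpud1, -1.53 ± 0.33), and the higher one was the lectin gene Os9 (1.45 ± 0.39). Os9 was not called without any 1 of the muscles, nor Ube2g2 without tumour 4 or any 1 of the muscles. Only 1 of 2 probe sets was called for Os9, Ube2g2 and Srpr. Edem1, not called by its brightest probe set, had 1 of 2 called higher. Srpr, Ube2g2, Edem3 and Herpud2 were not called without the scaling of muscles 1 and 3 (adjusted p = 0.305, 0.18, 0.24 and 0.361, limma). Brighter probe sets were called more often, and with dim ones left out 27.6% of the probe sets fitted were called. In that fit 3 of 18 genes of protein entry were higher and 1 lower. Of the 16 degradation genes fitted 1 was higher and 3 lower.

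None of the sensors was called, and the Perk-Atf4 branch held calls in both directions. Of 5 sensor genes, Ern1 and Ern2 (Ire1), Atf6, Atf6b and Eif2ak3 (Perk), limma called 0, with a median of 0.51. Only 2 of the 5 were bright enough to be fitted with dim probe sets left out. Eif2ak3 differed by 0.64 ± 0.34, Atf6b by 1.21 ± 0.48 and Atf6 by -0.14 ± 0.37. Of the 5, 1 had an unadjusted p under 0.05, Atf6b, where 1909 of all 12393 genes were higher and 1711 lower (limma). Every tumour lay above every muscle on Atf6b, as on 10.7% of all genes. Atf6b was called without the scaling of muscles 1 and 3 (adjusted p = 0.034, limma), where 19.9% of all probe sets were called. Of 19 genes of the Perk-Atf4 branch 2 were higher and 2 lower, 21.1% against 17.2% of all genes, with a median of 0.23. With dim probe sets left out 3 of the 14 fitted were higher and 3 lower, where 27.6% of the probe sets fitted were called. For Asns, the asparagine synthetase, the signal averaged 1862 ± 876 over the 6 tumours and 310 ± 15.7 over the 3 muscles (SD), which differed by 2.38 ± 0.42 (adjusted p = 0.00159, limma). Nupr1 was also higher (1.54 ± 0.46), and Vldlr (-1.93 ± 0.36) and Vegfa (-1.93 ± 0.59) were lower. Vldlr was called lower on 3 of its 4 probe sets and Vegfa on 1 of 2. Nupr1 was not called without tumour 4, tumour 5 or any 1 of the muscles, and Vegfa without tumour 3, tumour 5 or any 1 of the muscles, and without the scaling Vldlr and Vegfa were not called (0.157 and 0.203). Atf4 itself differed by 0.43 ± 0.38 and Atf3 by 0.04 ± 0.66, and neither was called. Of 12 chaperones outside the ER 2 were higher, Hsp90aa1 (2.30 ± 0.34) and Hspa1b (2.24 ± 0.58), and none lower, with a median of 0.76. Among those not called by their brightest probe set, Dnajb1 and Dnaja1 had 1 of 2 called higher. Trap1 had 1 of 2 and Hspa4 1 of 3 called lower. By brightest probe set the share called was 16.7%, against 17.2% of all genes. With dim probe sets left out 3 of the 12 were higher and none lower, against 27.6% of the probe sets fitted. Hspa1b was not called without muscle 1 or muscle 3.

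**Figure D4:**
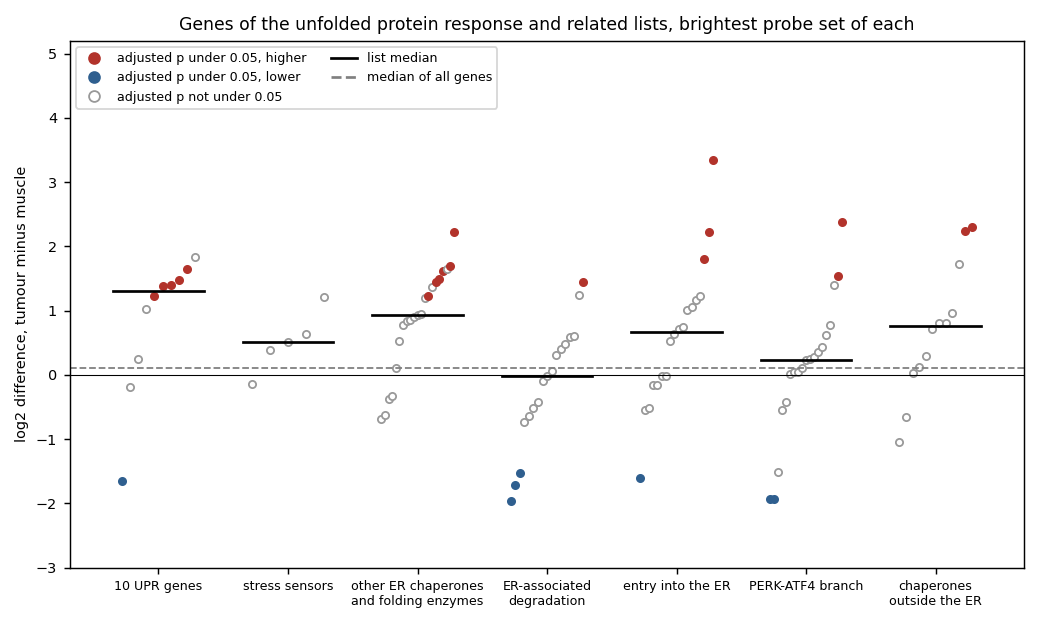
Log2 difference, tumour minus muscle, of the 10 genes and of 6 related lists, each gene through its brightest probe set; filled points had an adjusted p under 0.05, black lines are list medians and the dashed line is the median of all genes, 0.10. The medians are 1.31 for the 10 genes, 0.93 for the other ER chaperones and -0.02 for ER-associated degradation.

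Markers of macrophages and of adult muscle fibres differed between the groups. In bulk tissue, fewer cells of a type and less RNA per cell cannot be told apart. Beside 17.2% of all genes called, 9 of 12 macrophage markers were higher in tumours, with a summed signal of 10586 to 43030 in tumours and 3548 to 5043 in muscles. Of 12 markers of adult muscle fibres 10 were lower, and their sum was 1541 to 132704 in tumours, the highest in tumour 1, and 214315 to 297541 in muscles. Of 10 markers of B lymphocytes and plasma cells, cells with high Xbp1, 1 was higher, Sdc1, which other cells also express. Their sum was 1319 to 4840 in tumours and 1180 to 1302 in muscles. Of 10 fibroblast markers none was higher and 1 lower, with sums of 16232 to 93344 in tumours and 35955 to 42018 in muscles, and of 8 endothelial markers none was higher and 1 lower, with sums of 984 to 2423 in tumours and 3077 to 4012 in muscles. No marker of these lists was at 0 on any array. Of 10 markers of myogenic cells and rhabdomyosarcoma, Ncam1 and Myh3 were higher and Myf6 and Des lower. The Des call was lost without any 1 of 8 of the 9 arrays, all but tumour 1, and the Myh3 call without tumour 3, tumour 6 or any 1 of the muscles. The part of these cells in the values of the 10 genes was not tested.

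**Figure D5:**
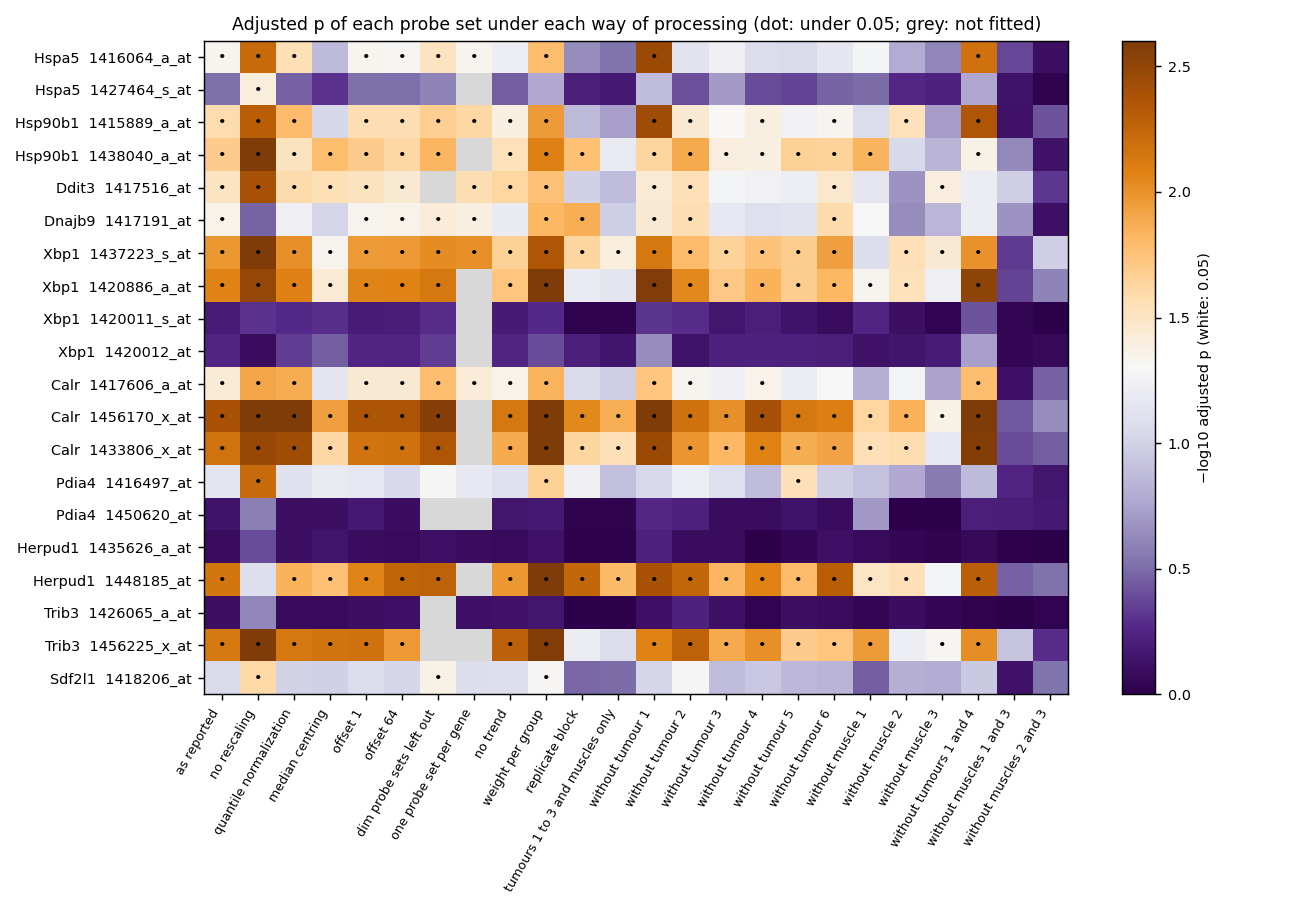
Adjusted p (colour, as the negative log10) of each of the 20 probe sets as reported and under the 23 alternatives; a dot marks an adjusted p under 0.05 and grey a probe set that was not fitted. Calr 1456170_x_at carries a dot without each single array, Hspa5 1416064_a_at carries 1 in only 1 of those columns, without tumour 1, and no probe set carries one in the last 2 columns, which leave 1 muscle.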

How the data were processed

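Per the submitters' processing notes, the deposited values are MAS5 signal intensities on a linear scale, 1 per probe set and array. MAS5 subtracts a local background and the signal of mismatch probes. The sources used here do not state its version, scaling target or filters. The only file was a table of 22690 probe sets on 9 arrays, of which 64 control probe sets were left out. Gene symbols came from the platform annotation, which gave 20380 probe sets a single symbol.

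Trimmed means (2% off each end) were lower on 2 muscle arrays, so all arrays were brought to the median of these means, 500.2. Tests ran on log2(signal + 16) over all 22626 remaining probe sets with limma 3.58.1 in R 4.3.3 (lmFit, and eBayes with an intensity trend), without covariates. Folds are on this offset scale, which understates those of dim probe sets. Alternatives were the raw scale, quantile normalization, median centring, offsets of 1 and 64, no dim probe sets, 1 probe set per gene, no trend, a weight per group, a replicate block and left-out arrays. On simulated data the fit made no false call and missed most of the changes put in, so a probe set that was not called is not shown to be unchanged. The simulated noise was independent between probe sets, of equal spread in both groups and without differences between arrays. Changes were put into a far smaller share of probe sets than the 15.4% called in the real data. How often real calls are false, or real changes are missed, therefore cannot be read from the simulation. Same-numbered tumours and muscles share only a number: their deviations from the group means correlated at 0.214, 0.193 and -0.0182. The text names every member probe set and, of the other lists, up to 3 called genes per direction; the other ER chaperones called higher, the sensors, Atf4, Atf3 and genes carrying the promoter element were named as well, after their values were seen. The 10 members and all lists, which held 164 other symbols, 154 of them on the array, were chosen with earlier results of these data known. Tables and figures used Python 3.11.15 and pandas 2.3.3.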

Additional observations from a re-analysis of the deposited data

Results flagged for a closer look

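Calr 1417606_a_at was the only 1 of the 20 probe sets on which a single tumour stood far from the other 5. Tumour 1 had a signal of 15116, against 6896 to 7903 in tumours 2 to 6, and its gap to the nearest tumour was 0.826 of the whole range on the log2 scale, above Dixon's 95% critical value for 6 samples. Chance marks about 1 in 20 groups. Without tumour 1 the difference from muscle was 1.07 (adjusted p = 0.0187, limma), against 1.23 with it.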

How the results depend on the processing

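Over the 20 probe sets, 23 alternatives gave 446 differences, of which 347 kept their direction and their side of the threshold, 84 lost a call, 7 gained 1 and 8 changed sign. The 12 called probe sets kept their direction throughout. The sign changes were those of uncalled probe sets. Without the scaling of muscles 1 and 3, Xbp1 1420011_s_at, Xbp1 1420012_at and Herpud1 1435626_a_at differed by 0.51, 0.22 and 0.63, and the median of all probe sets moved to 0.75, while it was 0.11 as reported. Herpud1 1435626_a_at also differed by 0.07 with and without the replicate block on tumours 1 to 3 and the muscles and by -0.34 to 0.03 when 1 array was left out, above 0 only without tumour 4. Xbp1 1420011_s_at and Pdia4 1450620_at differed by 0.02 and -1.16 without muscles 2 and 3. The causes were not tested.

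Member probe sets called higher and lower, 10 and 2 as reported, numbered 13 and 0 without the scaling, 10 and 1 with quantile normalization, 7 and 1 with median centring, 9 and 1 without the trend, and 9 and 1 without tumours 1 and 4. Of all probe sets 19.9%, 15.1%, 13.9%, 14.5% and 20.3% were called in these 5 fits, against 15.4% as reported. With a single probe set per gene, which tests fewer probe sets, they numbered 5 and 1. With dim probe sets left out 9 of the 16 fitted were higher and 2 lower, where 27.6% of the probe sets fitted were called. Member genes, 5 higher and 1 lower as reported, numbered 7 and 0 without the scaling, 5 and 0 with quantile normalization, 2 and 0 with median centring, 4 and 0 without the trend, and 4 and 0 without tumours 1 and 4. Leaving out 1 array gave 4 to 10 probe sets higher and 0 to 2 lower. By gene it gave 0 to 5 higher and 0 to 1 lower. In those fits 7.51% to 19.3% of all probe sets were called. At an unadjusted p under 0.05 limma then gave 11 to 13 member probe sets higher and 2 lower. With all arrays, 7 of the 10 genes were higher and 1 lower at that threshold (limma). Among all 12393 genes 1909 were higher and 1711 lower. Of the 92 other listed pathway genes 14 were higher and 6 lower, beside 8.4% higher and 8.77% lower among all genes. Without the scaling these pathway genes numbered 36 and 0. With a weight per group 24 were higher, and 28 without tumours 1 and 4. Of all probe sets 19.9%, 21.7% and 20.3% were called in these fits. Without 1 array 6 to 26 pathway genes were higher and 4 to 8 lower. Without the scaling the split of all calls was 3913 higher and 583 lower, against 1784 and 1704 as reported.

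On tumours 1 to 3 and the muscles alone, 3 probe sets were higher and 1 lower, 1 gene was higher and 0 lower, and 7 pathway genes were higher. The replicate block on the same arrays gave 4 probe sets higher and 2 lower, 1 gene higher and 1 lower, and 9 pathway genes higher. Of all probe sets 7.95% and 10.7% were called in these fits. Added after seeing the data were fits without muscles 1 and 3 and without muscles 2 and 3, which leave 1 muscle assumed to vary like the tumours. They called 0 members in either direction by limma, and 2 and 1 pathway genes higher with 0 lower, where 1.6% and 1.1% of all probe sets were called. In these fits Hspa5 1416064_a_at differed by 1.58 and 0.85, Xbp1 1437223_s_at by 1.05 and 2.02, and Dnajb9 by -2.35 and -0.98. The number of arrays and dim signals limit these values.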
